A study of Mus musculus with 14 samples.

Results

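Genes for the protein components of the cytosolic ribosome were examined in lung tissue of BALB/c mice. They were taken by symbol: the gene name had to be Rps or Rpl with a number and at most 1 letter, Rplp0 to Rplp2, or Rpsa. The microarray probe set had to carry that symbol alone in the platform annotation. This gave 46 of the 18194 genes on the array, 22 of the Rps and Rpsa kind and 24 of the Rpl kind, measured by 100 probe sets. Each gene was represented by its probe set with the highest mean level, and Rps19 was kept apart. The study compared 4 lungs from mice with 4T1 cells in the fourth mammary fat pad, 5 from mice with 67NR cells there and 5 from control mice given PBS without cells, here called normal. Both are mouse mammary carcinoma lines, and the labels call 4T1 metastatic and 67NR non-metastatic. Lungs were taken 6 days after injection or at a tumour volume near 50 mm3, were perfused with PBS to clear blood, and each gave 1 array. Each tumour class was 1 cell line, and no label states whether samples were separate mice; the p-values therefore reflect sample-to-sample spread, which may in part be technical.

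Cytosolic ribosomes consist of a small subunit, which decodes the mRNA, and a large subunit, which forms the peptide bond. Their proteins are made in matched amounts and assembled with ribosomal RNA in the nucleolus. Their mRNAs are abundant in all growing and resting cells, and most begin with a 5' terminal oligopyrimidine tract, a C followed by further C and T bases, through which mTOR signalling controls translation. The mRNA level therefore does not by itself give the rate at which ribosomes are made. Rps19 sits in the head of the small subunit, is needed to mature the small subunit's RNA, and is mutated in Diamond-Blackfan anaemia, a failure of red cell production. Outside the ribosome, Rps19 protein is also known as a ligand of the complement C5a receptor C5ar1.

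The oligopyrimidine tract could be read at a minority of the annotated start sites. Sequences came from RefSeq (build GRCm38.p6). All 46 genes were in its gene table, and 40 of them had a promoter sequence, with 48 annotated starts. A start was counted when it was a C opening an unbroken run of at least 5 C or T bases. This held for 8 of the 48 starts (16.7%), against 2.51% of the 32851 promoters of all genes. The 8 are printed below as 30 bases from 10 before the annotated start, with the run in capitals. They are shown as examples of the tract in members of both subunits.
Rps6 (chr4:86857348-86857377, minus strand): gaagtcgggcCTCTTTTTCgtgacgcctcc
Rps10 (chr17:27635225-27635254, minus strand): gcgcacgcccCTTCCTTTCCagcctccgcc
Rps18 (chr17:33955646-33955675, minus strand): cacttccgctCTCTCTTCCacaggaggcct
Rps27 (chr3:90213629-90213658, minus strand): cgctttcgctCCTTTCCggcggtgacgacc
Rpl14 (chr9:120571507-120571536, plus strand): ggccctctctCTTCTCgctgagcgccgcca
Rpl35 (chr2:39005112-39005141, minus strand): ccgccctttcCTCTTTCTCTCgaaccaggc
Rpl38 (chr11:114668570-114668599, plus strand): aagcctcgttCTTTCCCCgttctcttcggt
Rplp2 (chr7:141447641-141447670, plus strand): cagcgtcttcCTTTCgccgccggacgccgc

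Short motifs were searched on both strands of the 300 bases around each start, from 250 before to 50 after it, and matches could overlap each other and the run. CCGGAAG, the core bound by ETS factors such as Gabpa, was in 20 of 48 member promoters (41.7%) and in 8.86% of all. CTTTCC was in 45.8% of member promoters and 26.6% of all. GGGCGG, the core bound by Sp1, was in 50.0% and 35.7%, and AAGATGG, the core bound by Yy1, in 14.6% and 6.34%. Rps19 has 3 annotated starts, and at 0 of them did such a run begin. The 250 bases before its outermost start overlapped 0 annotated genes and are printed because Rps19 is the member described apart. Capitals mark a match to GGGCGG and to CTTTCC, both on the reverse strand.
Rps19 (chr7:24884342-24884591, plus strand): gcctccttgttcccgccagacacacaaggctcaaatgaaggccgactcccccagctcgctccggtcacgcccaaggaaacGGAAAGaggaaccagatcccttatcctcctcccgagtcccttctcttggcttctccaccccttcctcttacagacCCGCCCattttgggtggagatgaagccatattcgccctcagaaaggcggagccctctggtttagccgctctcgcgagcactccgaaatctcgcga
A match is a string of letters and was not tested as a binding site. Among bright members the 15 with CCGGAAG and the 15 without it had median log2 changes of -0.011 and 0.0042 in 4T1 against normal lungs.

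Array medians ranged from 113.2 to 116.1 intensity units. The 10 lung markers fixed for the tissue check were all above the level filter, and their summed intensity ranged from 77093 to 92263 in normal, 75109 to 91426 in 4T1 and 76209.9 to 91703 in 67NR lungs. The Gapdh control probe sets gave a log2 ratio of 3' to 5' signal, which tracks RNA quality, of -0.47 ± 0.059 (SD, n = 5) in normal, -0.44 ± 0.044 (SD, n = 4) in 4T1 and -0.49 ± 0.081 (SD, n = 5) in 67NR lungs. The same ratio from the actin control probe sets was 0.37 ± 0.053 (SD, n = 5) in normal lungs. It was 0.35 ± 0.023 (SD, n = 4) in 4T1 and 0.34 ± 0.025 (SD, n = 5) in 67NR lungs. Neutrophil markers were the list with calls: 8 of 9 tested rose in 4T1 against normal lungs. Of its 12 genes 10 had a value, and their summed intensity was 24296 to 34225 in 4T1 lungs against 4253 to 7804 in normal and 5809 to 9397 in 67NR lungs, with 0 markers at 0. Erythroid markers (2 of 8 tested) had 0 calls, with median changes of 0.98 in 4T1 and 0.74 in 67NR against normal lungs, and 1 of the 2 at an unadjusted p under 0.05 in each. Adipose markers (3 of 8 tested) had 0 calls, with a median change of 0.50 in 4T1 against normal lungs.

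The members fell into a bright and a dim set. In 35 of the 46 the mean log2 level, here log2(intensity + 16), lay between 11.91 and 13.93, and in the other 11 between 4.25 and 8.93. No member lay in between, and a threshold of 11 was set in this gap after the values were seen. All 11 dim members were measured by probe sets with the plain _at ending. Of the 35 bright ones 14 had the ending x_at, 15 a_at and 2 s_at, which the manufacturer gives to probe sets that can match more than 1 transcript, and 4 had the plain ending. Ribosomal protein genes have many processed pseudogenes, and a probe set cannot tell such copies apart where they share sequence, so levels of bright members are uncertain in that respect. A further 28 genes with such symbols, among them Rpl5 and Rplp1, had only probe sets that list other genes too and are not analysed here. In all 110 probe sets carried a ribosomal protein symbol beside others, 1 of them with Rps19. Levels of different probe sets cannot be compared with each other as amounts. Some bright genes also had a low plain _at probe set, with mean log2 levels of 4.36 beside 12.82 for Rpsa. For Rps3 these were 8.37 beside 13.40, and for Rps24 8.15 beside 13.34. A low probe set is thus not read here as a low mRNA level. Whether the probe sets of dim members read the main transcript was not tested, so their changes are those of the probe sets. Of the 46 members 42 passed the level filter. Rpl14, Rps16 and the paralog genes Rpl3l, of striated muscle, and Rpl39l did not.

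Rps19 was slightly lower in 4T1 than in normal lungs. Its intensity was 9173, 8975, 9198, 8879 and 8782 in the 5 normal lungs and 8690.5, 8502, 8756 and 8255 in the 4 4T1 lungs. In the 5 67NR lungs it was 8653, 8808, 8764.5, 9288 and 8446. All 4T1 arrays lay below all normal arrays, while 67NR arrays spanned nearly the whole range, from below 3 of the 4 4T1 arrays to above all normal arrays. Mean log2 levels were 13.14 ± 0.029 in normal (SD, n = 5), 13.06 ± 0.038 in 4T1 (SD, n = 4) and 13.10 ± 0.050 in 67NR lungs (SD, n = 5). The log2 change of 4T1 against normal lungs was -0.074 (SE 0.039, 95% interval -0.16 to 0.010), a fold of 0.95, and did not pass in the fit over all genes (limma adjusted p = 0.846). The exact two-sided permutation test over these 9 arrays gave p = 0.0159 (0.0476 after Benjamini-Hochberg adjustment over the 3 comparisons), where the smallest p the design allows is 0.00794. The members, Rps19 among them, were chosen with earlier results of these data known. This adjustment does not count that choice. The separation was narrow. After quantile normalization the change was -0.068, the groups overlapped, and the adjusted exact p was 0.0952. After median centring the change was -0.058, the groups overlapped, and the adjusted exact p was 0.238. Neutrophil markers rose in the same lungs, and the summed erythroid markers were 1370.4 to 2356 there against 479 to 1748 in normal lungs; their part in the Rps19 result was not tested. In tissue RNA, fewer cells of a type and less RNA per cell cannot be told apart.

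**Figure D1:**
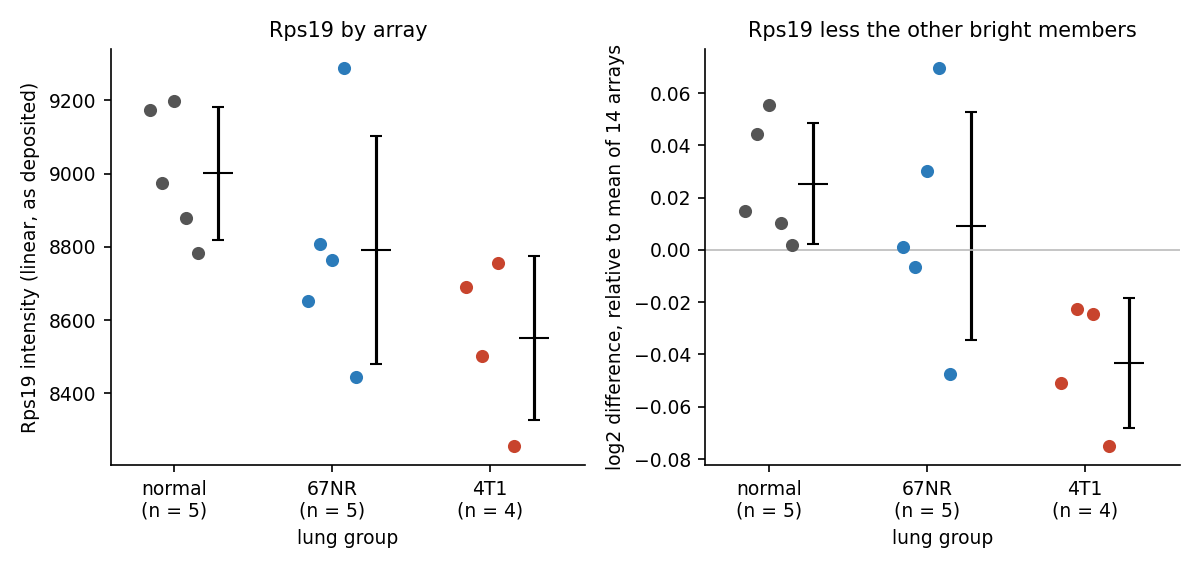
The left panel plots the intensity of the Rps19 probe set on each array by group (points), with the group mean and SD (bars); the axis does not start at 0. The right panel plots the log2 level of Rps19 less the mean of the 33 other bright members, each relative to its mean over 14 arrays. In both panels the 4 4T1 points lie below the 5 normal points, and the 67NR points overlap both groups, with the lowest point in each panel a 4T1 array.

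Rps19 was also set against the rest of the family on the same array. This uses the same Rps19 values and is no second measurement. The mean over the 34 bright members without paralogs differed little between these groups, at 0.0014 in 4T1 and 0.0088 in normal lungs. Rps19 less the mean of 33 other bright members, each centred on its mean over all arrays, stood at -0.043 ± 0.025 (SD, n = 4) in 4T1 and 0.025 ± 0.023 (SD, n = 5) in normal lungs. The 4T1 arrays ranged from -0.075 to -0.023 and the normal arrays from 0.0021 to 0.055, so the groups did not overlap. In 67NR lungs the range was -0.048 to 0.070, which held all 5 normal arrays and 2 of the 4 4T1 arrays. This difference within an array does not depend on median centring. It is a description, because Rps19 was known beforehand to be a member of interest.

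Against 67NR lungs the Rps19 change of 4T1 lungs was -0.040 (95% interval -0.12 to 0.045, limma adjusted p = 0.746; exact permutation p = 0.254). In 67NR against normal lungs it was -0.034 (95% interval -0.11 to 0.045, limma adjusted p = 0.835; exact permutation p = 0.214). The adjusted exact p was 0.254 for both. The 67NR value moved in both directions when 1 array was left out. Without 67NR replicate 4, the highest of all 14 arrays, the change was -0.054 and the adjusted exact p was 0.0357. Without 67NR replicate 5 the change was -0.020. Apart from replicate 4, leaving out 1 array gave an adjusted exact p of 0.226 to 0.421. The limma fit of this comparison did not pass in any of 27 alternatives.

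In 4T1 against normal lungs the changes of ribosomal protein genes were small and fell on both sides of 0. Of the 42 tested members 0 rose and 0 fell in limma (adjusted p under 0.05), where 0.412% of all 10916 genes tested rose and 0.0% fell. At an unadjusted p under 0.05 there were also 0 members, against 6.56% of all genes. The fit raises the SE of genes with very small spread, so such counts are cautious for bright members in each comparison. With a trended robust variance Rps19 had an unadjusted limma p of 0.036 (adjusted 0.703). With array weights it was 0.035 (adjusted 0.429). The members' median log2 change was -0.0013, against -0.00077 for all genes, and 22 lay below 0, against 50.5% of all genes. The change was under 0.1 in size on the log2 scale, a fold of 1.07, for all 35 bright members and for 76.2% of all genes tested. The 95% interval of every bright member lay within ±0.25, a fold of 1.19, which held for 62.1% of all genes. Bright members lie high on the scale, where the highest value on an array was 15073 to 16357, and SD falls with level. In each comparison all genes tested are thus not a set of like level. Whether the signal of bright members was still proportional to RNA was not tested. Dim members were measured less precisely, and over all 42 the intervals reached from -0.82 to 0.51. Rps19 was the 1 member whose groups did not overlap. Over all genes 1.32% were lower without overlap and 1.39% higher, 2.71% in all, so 1 of 42 members is near the share of all genes. Rps19 also had the lowest change of the 35 bright members and the smallest unadjusted p of the 42 (0.0812), while 18.1% of all genes tested had a lower change.

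**Figure D2:**
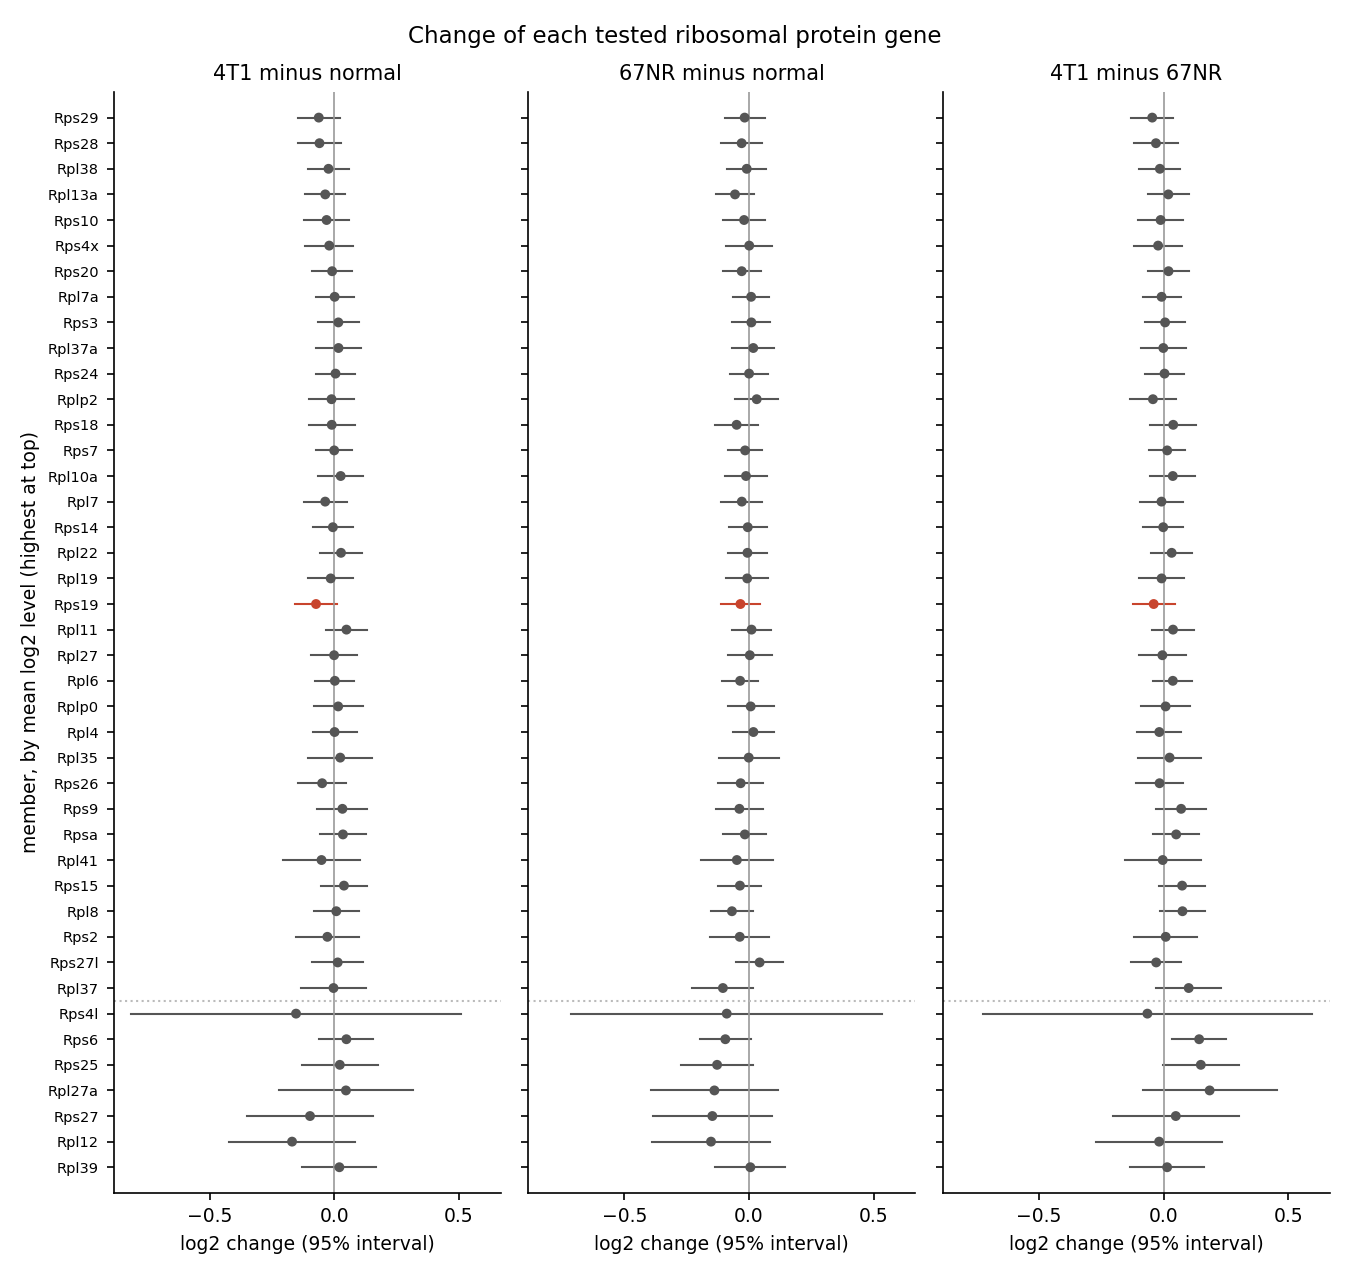
Each point is the log2 change of a tested member (42 genes) with its 95% interval from the limma fit, in 4T1 minus normal, 67NR minus normal and 4T1 minus 67NR lungs. Members are sorted by mean log2 level, which orders probe sets and not amounts; the dotted line separates the 35 bright members above from the 7 dim ones below, and Rps19 is in red. Bright members lie close to 0 with intervals within ±0.25 in all panels.

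The other tested small subunit proteins had overlapping groups, as most genes did. Rps29, a zinc-binding protein of the small subunit head, had an intensity of 15289.5, 14676, 14917 and 15763 in 4T1 lungs and 16147, 15926, 16079, 15695 and 15334 in normal lungs. The groups overlapped, with the highest 4T1 array above the lowest 2 normal arrays. Its log2 change was -0.063 (limma adjusted p = 0.896), and its other 2 probe sets gave -0.024 and -0.062. The probe set was the brightest of all on 10 of the 14 arrays, and whether its signal was still proportional to RNA there was not tested. Rps15, also of the head, had the highest change of a bright small subunit protein, 0.038 (adjusted p = 0.965). Rpsa, known also as a laminin receptor precursor, had a change of 0.034 (adjusted p = 0.972). Its levels were 12.85 ± 0.046 (SD, n = 4) in 4T1 and 12.82 ± 0.046 (SD, n = 5) in normal lungs. Rps6, the target of the S6 kinases, had a change of 0.048 (adjusted p = 0.962) and Rps27, a zinc finger protein, one of -0.098 (adjusted p = 0.970), both from dim probe sets. Over the 16 bright small subunit genes the median change was -0.010, and 11 lay below 0. Of the 14 proteins of the small subunit head 9 were tested, with a median of -0.011 and 0 calls.

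Large subunit proteins had a median change of 0.00056 over 18 bright genes, 10 above 0 and 8 below. Rpl11, which binds Mdm2 and so stabilises p53 when ribosome assembly fails, had the highest change of all members, 0.048 (SE 0.039, limma adjusted p = 0.947). Its intensity was 8677 to 9242 in 4T1 and 8243 to 9007 in normal lungs. Rpl37, a zinc finger protein, and Rpl4, which lines part of the exit tunnel, had changes of -0.0039 and 0.00046. Rplp0 and Rplp2, of the stalk that recruits translation factors, had changes of 0.015 and -0.012. Rpl12, at the base of the stalk, had the lowest change of all members, -0.17, from a dim probe set (95% interval -0.42 to 0.082, adjusted p = 0.912). It rested on 4T1 replicate 2, at 114 against 160.1 to 192 on the other 4T1 arrays, and was -0.027 without it. Rpl27a, also dim, had a change of 0.046, which was -0.087 without 4T1 replicate 2. Of the 20 genes known to be mutated in Diamond-Blackfan anaemia 12 were tested, and 0 were called, with a median change of -0.021.

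In 67NR against normal lungs 0 of 42 members rose and 0 fell in limma, as did 0.0% and 0.0% of all genes. At an unadjusted p under 0.05 there were 0 members, against 9.13% of all genes. Groups overlapped for all 42 members, while 0.852% of genes were higher and 0.797% lower without overlap, 1.65% in all. More members lay below 0 than above, 30 of 42, against 50.4% of all genes, and their median was -0.019 against -0.0010. Members share arrays and labelling, so these 30 are not independent observations. The changes were small, with 34 of 35 bright members under 0.1 in size, against 72.8% of all genes. The exception was Rpl37 at -0.10 (95% interval -0.23 to 0.017, adjusted p = 0.615). Its intensity was 3396 to 3970.5 in 67NR and 3698 to 4172 in normal lungs. The highest bright change was that of Rps27l, the p53-inducible paralog of Rps27, at 0.043, and Rplp2, Rpl4 and Rpl37a, a further zinc finger protein, followed with 0.031, 0.018 and 0.017. The lowest changes came from dim probe sets: Rpl12 at -0.15, Rps27 at -0.15, Rpl27a at -0.14 and Rps25, a small protein of the small subunit head, at -0.13, with adjusted p-values from 0.602 to 0.776. Rpsa and Rpl11 had changes of -0.017 and 0.010. The comparisons of 4T1 and of 67NR lungs with normal lungs share the normal arrays.

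In 4T1 against 67NR lungs 0 of 42 members were higher and 0 lower in limma, where 0.559% of all genes were higher and 0.202% lower. At an unadjusted p under 0.05 there was 1 member, Rps6, against 12.4% of all genes. Rps6 had an intensity of 401, 390.2, 393 and 373 in 4T1 lungs and of 364, 352, 336, 362 and 342 in 67NR lungs. All 4T1 arrays lay above all 67NR arrays, which over all genes was the case for 2.35%, while 2.22% were lower without overlap, 4.56% in all. The normal lungs, at 353, 357, 403, 364 and 406, overlapped both groups. The log2 change was 0.14 (SE 0.051, 95% interval 0.034 to 0.25, limma adjusted p = 0.248). A further, dimmer probe set of Rps6 had a change of -0.064, and the mean of both gave 0.039. Rps25, with intensities of 301, 295, 335 and 304 in 4T1 and 285, 256, 300.6, 277 and 265 in 67NR lungs, had a change of 0.15 (adjusted p = 0.416), and its groups overlapped by 1 array of each. Rpl27a had the highest change, 0.19 (adjusted p = 0.599). It too rested on 4T1 replicate 2, at 396 against 244 to 293 on the other 4T1 arrays, and was 0.052 without it. Rpl37 had the highest change of a bright member, 0.10 (adjusted p = 0.536). On the lower side were the paralog Rps4l at -0.065, Rps29 at -0.046, Rplp2 at -0.043 and Rps19. The members' median was 0.0072, against -0.00079 for all genes, and 34 of 35 bright members had changes under 0.1 in size, against 67.2% of all genes.

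Of the paralog genes, Rps27l was bright, with log2 levels of 12.09 ± 0.040 in normal (SD, n = 5), 12.10 ± 0.073 in 4T1 (SD, n = 4) and 12.13 ± 0.065 in 67NR lungs (SD, n = 5). Rps4l varied most of all tested members within groups, with an SD of 0.63 in normal, 0.46 in 4T1 and 0.43 in 67NR lungs around means of 9.01, 8.85 and 8.92. Rpl3l and Rpl39l lay below the level filter, with means of 6.09, 5.98 and 5.94 and of 4.66, 4.99 and 4.95 in normal, 4T1 and 67NR lungs, and were not tested.

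Replicates of a group differed little in bright members. The SD within groups, pooled over the 3 groups with 11 degrees of freedom, had a median of 0.047 over the 35 bright members and was below 0.1 for 34 of them. It was 0.11 over all tested genes. It was 0.073 over the 546 other genes that were at least as bright as the dimmest bright member, of which 70.9% lay below 0.1. For Rps19 it was 0.040, and for the dim tested members the median was 0.19. SD falls with level on these arrays, and these sets share no test.

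**Figure D3:**
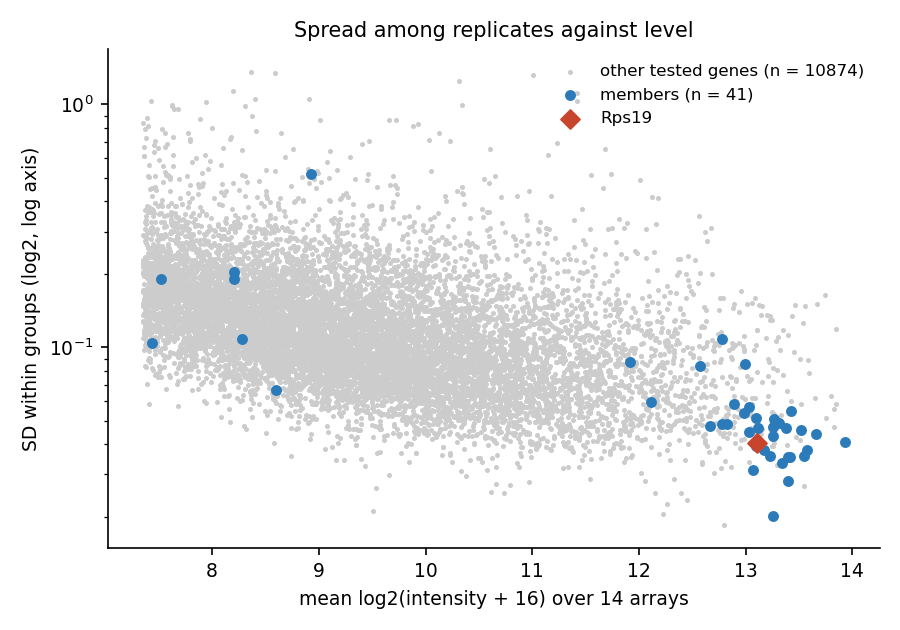
The SD within groups (log axis) is plotted against the mean log2 level over 14 arrays for every tested gene. Other genes are grey, 41 members are blue and Rps19 is the red diamond; most members lie at the lower right, with high levels and SDs under 0.1, and a few dim members lie to the left.

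The mean over 34 bright members, paralogs left out, ranged over the arrays from -0.034 in 67NR replicate 3 to 0.046 in normal replicate 1, relative to the mean of all arrays. Group means were 0.0088 ± 0.023 in normal (SD, n = 5), 0.0014 ± 0.028 in 4T1 (SD, n = 4) and -0.0100 ± 0.020 in 67NR lungs (SD, n = 5). The array ranges overlapped: -0.014 to 0.046 in normal, -0.026 to 0.032 in 4T1 and -0.034 to 0.011 in 67NR lungs. The small subunit (15 genes without Rps19) spanned -0.050 to 0.063 over all arrays and the large subunit (18 genes) -0.027 to 0.033. Some arrays were high and others low in both subunits, as in 4T1 replicate 1, at 0.035 and 0.033, and 4T1 replicate 2, at -0.030 and -0.022. In others the subunits differed in sign, as in 67NR replicate 4, at -0.0073 and 0.023, and 67NR replicate 5, at 0.0068 and -0.025.

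**Figure D4:**
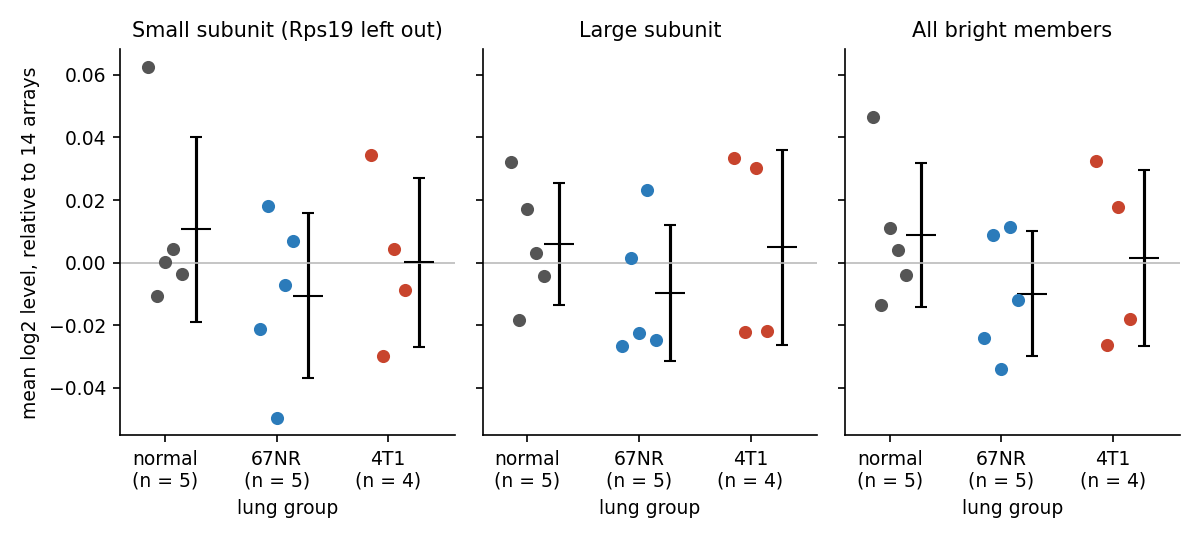
Points are single arrays and bars the group mean and SD of the mean log2 level, relative to 14 arrays, of 15 small subunit genes (Rps19 left out), 18 large subunit genes and all 34 bright members. The 3 groups overlap in every panel.

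Bright members varied together from array to array. Between pairs of the 34, the median Pearson correlation over 14 arrays was 0.24, and 77.4% of the 561 pairs were above 0. Over all pairs of tested genes the median was 0.0074, with 50.8% above 0, and among the 546 other bright genes it was 0.040. With group means subtracted the median among members was 0.28. It was 0.26 within the small subunit, 0.29 within the large subunit and 0.26 between a small and a large subunit gene. These correlations are over arrays that each carry all genes of 1 labelling, and so describe these libraries.

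**Figure D5:**
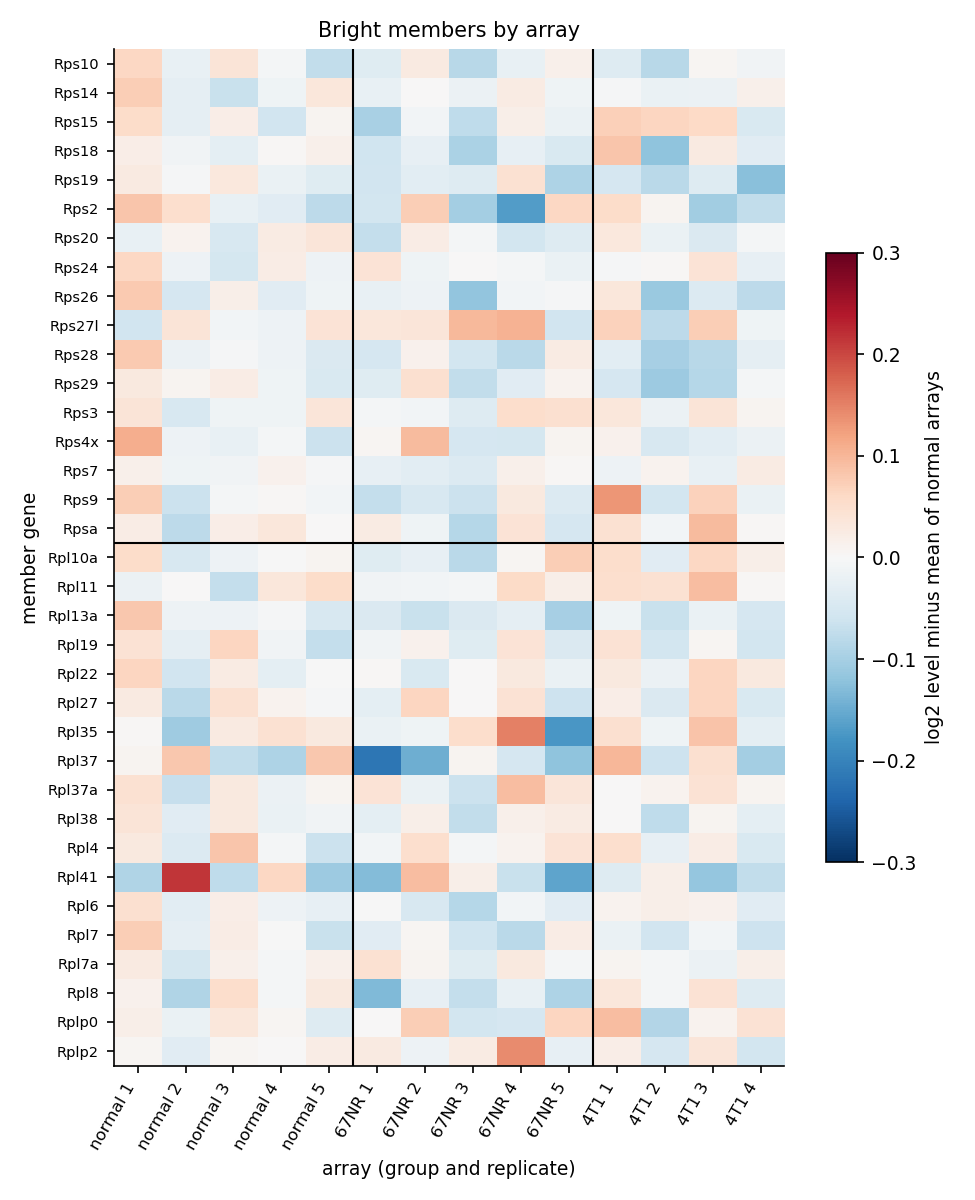
Each cell is the log2 level of 1 of the 35 bright members on 1 of the 14 arrays, minus that gene's mean over the normal arrays; the colour scale runs from -0.3 (blue) to 0.3 (red). Rps genes and Rpsa are above the horizontal line and Rpl genes below, and vertical lines separate normal, 67NR and 4T1 lungs; most cells are pale, and columns such as normal 1 are shaded alike over many genes.

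Rps19 had a median correlation of 0.22 with the other bright members over 14 arrays, close to the median of 0.24 over all their pairs. Its correlation was 0.70 with Rpl19, 0.63 with Rpl13a and 0.60 with Rplp2, the highest, and -0.18 with Rplp0 and -0.21 with Rpl11. With group means subtracted these became 0.80, 0.63, 0.76, -0.14 and 0.14, so the sign for Rpl11 turned. The 5 tested genes most like it were Klhdc1 (r = 0.81), the kinesin subunit Kif3a (0.80), the splicing factor Prpf31 (0.80), the nuclear import receptor Tnpo3 (0.78) and Dnajc2, a chaperone that binds ribosomes (0.76). With group means subtracted their correlations were 0.72, 0.63, 0.78, 0.76 and 0.67. Of the 100 most like it 2 (2.0%) were members, as were 41 of all 10915 genes compared (0.376%). In 4T1 against normal lungs the 5 had log2 changes of -0.33 (Kif3a) to -0.057 (Tnpo3), and 0 of them passed (limma adjusted p from 0.128 to 0.932). These 5 were picked by likeness to Rps19 on the same arrays, so changes below 0 follow in part from that choice.

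A gene's probe sets can disagree, and here bright ones gave near values. Over 67 bright probe sets of the 35 genes, changes in 4T1 against normal lungs ranged from -0.074, that of Rps19, to 0.095, in a probe set of Rpl35. All 67 lay under 0.1 in size, as did 66 in 67NR against normal lungs and 65 in 4T1 against 67NR lungs. Rpl35, a large subunit protein near the exit tunnel, had 5 bright probe sets with changes of 0.023, 0.051, 0.042, 0.054 and 0.095, all above 0. Rps28, of the small subunit head, had 3, with changes of -0.060, -0.068 and -0.030. Rps19 has 1 probe set of its own, and the 1 that lists it beside other genes was left out by rule. Its value thus has no second measurement here. The 33 dim probe sets ranged from -0.39 to 0.33. Some of these lay well above the level filter. At mean log2 levels of 10.49, 10.51 and 10.68, probe sets of Rps9, Rpl13a and Rpl22 had changes of 0.16, 0.16 and 0.0065. The brightest probe sets of these genes had 0.032, -0.037 and 0.026, so near values hold only above the threshold of 11.

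Other genes of translation and ribosome assembly were taken from lists fixed with earlier results known. Among 19 tested translation factors and other mRNAs of the oligopyrimidine class 0 were called in 4T1 against normal, 67NR against normal or 4T1 against 67NR lungs, with medians of 0.015, -0.017 and 0.049. The largest changes in 4T1 against 67NR lungs were those of the RNA-binding protein Hnrnpa1 (0.22, limma adjusted p = 0.425) and the histone chaperone Nap1l1 (-0.15, adjusted p = 0.361). Among 35 tested genes of ribosome biogenesis 0 were called in each, with medians of -0.035, 0.0016 and -0.030. The lowest adjusted p was that of Heatr1, a factor of ribosomal RNA transcription and processing, with a log2 change of -0.28 in 4T1 against 67NR lungs (SE 0.062, limma adjusted p = 0.0544). The C/D box particle protein Nop56 followed with -0.20 (adjusted p = 0.244). Among 18 tested genes of the mTOR pathway and related regulators 0 were called, with medians of 0.028, -0.019 and 0.033. The largest changes of this list in 4T1 against 67NR lungs were those of Ddit4, an inhibitor of mTOR (0.45, limma adjusted p = 0.769), and Mycn (-0.33, adjusted p = 0.541). The 76 tested proteins of the mitochondrial ribosome, a separate particle that translates mitochondrial mRNAs, had 0 calls too, with medians of -0.021, 0.032 and -0.049. Its largest changes were 0.28 for Mrpl19 in 67NR against normal lungs (adjusted p = 0.300) and 0.24 for Mrpl33 in 4T1 against 67NR lungs (adjusted p = 0.227). At an unadjusted p under 0.05, 5, 4 and 8 of these 76 passed, where the shares of all genes were 6.56%, 9.13% and 12.4%. Ribosomal genes that the symbol rule leaves out had 4 tested members and 0 calls, with medians of -0.0094, -0.016 and 0.0020. Among these Rpl22l1, a paralog of Rpl22, had a change of -0.11 in 67NR against normal (adjusted p = 0.518) and 0.10 in 4T1 against 67NR lungs (adjusted p = 0.416).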

How the data were processed

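The authors' deposited table holds linear probe set intensities, already on a common scale; the method of summary, background correction and normalization was not given in the sources used here. Biotin-labelled cRNA for Affymetrix arrays was made from 3 µg of RNA, per the labels' protocols. Gene symbols came from GEO's 2016 annotation of the platform, and only those with 1 symbol were used (34958 of 45101). Intensities were converted to log2(intensity + 16), so changes of dim genes are understated. The probe set with the highest mean was kept per gene, and genes in the upper 60% of mean level (above 7.35) were tested. Group means over 14 arrays were fitted with limma 3.58.1 in R 4.3.3, with Benjamini-Hochberg adjustment over 10916 genes and an adjusted p under 0.05 as a call. This moderation raises the SE of genes with very small spread. Rps19 was also tested by exact permutation. The steps were tested on simulated data.

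Genes were named by rule: Rps19, members with a call, the 4 highest and 4 lowest changes per comparison, the stalk, Rpsa, Rps6, Rpl11 and paralogs, the 5 genes most like Rps19, and up to 2 genes of each other list. Rpl35, Rpl13a, Rpl19 and Rps28 were chosen after their values were seen. The members and lists were chosen with earlier results of these data known. Coordinates are those of RefSeq, since no build is given for the arrays. Replicate numbers did not pair the samples. Alternatives covered offsets, filters, normalization, probe set choice, variance models, array weights, a replicate block and leaving out arrays.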

Additional observations from a re-analysis of the deposited data

Results flagged for a closer look

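Among 63 sets of values tested for a single array far from its group, 3 were found, and chance gives about 1 in 20. Rpl3l stood at 5.29 on the log2 scale in 4T1 replicate 2, and the nearest other 4T1 array at 6.14; it lies below the level filter. Rps15 stood at 12.73 in 4T1 replicate 4, with the nearest other at 12.84. Rpsa stood at 12.74 in normal replicate 2, with the nearest other at 12.82.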

How the results depend on the processing

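Over 27 alternatives per comparison 0 members were called, and the members' median log2 change ranged from -0.011 to 0.015 in 4T1 against normal, -0.033 to -0.0081 in 67NR against normal and -0.0096 to 0.019 in 4T1 against 67NR lungs. Counts at an unadjusted p under 0.05 were at most 1, 3 and 3. Signs of uncalled changes turned in some alternative for 26, 22 and 21 of 42 members. Counts of all genes called ranged from 26 to 67 (main 45), 0 to 11 (main 0) and 41 to 184 (main 83). The Rps19 change in 4T1 against normal lungs kept its direction in all 27 (-0.086 to -0.057, limma adjusted p from 0.429 to 0.999985). Its exact test, whose alternatives were chosen after seeing the data, gave an adjusted p of 0.0952 after quantile normalization and 0.238 after median centring; the cause was not tested. Leaving out 1 array gave 0.0536 to 0.107 in 4T1 against normal and 0.0357 to 0.421 in 67NR against normal lungs. In 4T1 against 67NR lungs it gave 0.171 to 0.571. In the comparisons with 4T1 lungs the smallest unadjusted p then rises to 0.0179 or 0.0286. An adjusted p above 0.05 there does not by itself show instability. In 4T1 against normal lungs the unadjusted p was 0.0357 without 4T1 replicate 2 or 4, above the smallest of 0.0179. In 67NR against normal lungs the smallest p does not rise. With the replicate block 0 members were called, the Rps19 change was -0.086 (limma adjusted p = 0.835), and 44 genes were higher and 1 lower in 4T1 against normal lungs. Same-numbered arrays did not deviate together: 3 of 13 pairs had a correlation above 0.1 (range -0.34 to 0.22), and 3 of 26 arrays correlated best with their own number. The number of arrays and the dimness of 11 members limit the precision.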
